A study of Homo sapiens with 12 samples.

Results

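EGR1, EGR2 and EGR3 of the early growth response family, the EGR corepressors NAB1 and NAB2, the serum response factor SRF and the immediate early gene IER2 were followed in human lung epithelial cells given an extract of poultry dust. The 7 genes were taken by symbol, as a family and its partners, and the rule uses no measured value, although earlier results of these data were known when the genes were proposed. Of 47320 probes, 7 are annotated to these symbols, and they cover 6 of the 7 genes. EGR3 has 2 probes and each of the other covered genes has 1, while EGR2 was not analysed here. All 7 probes passed the filter on dim probes, which asked for detection (p under 0.05) on 2 or more arrays. The EGR3 probe ILMN_1722781 passed it only through arrays of cells given extract for 1 h.

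EGR proteins are zinc finger transcription factors that bind GC-rich sites, and their genes are switched on within minutes by growth factors, stress and injury without new protein synthesis. SRF binds CArG boxes in the promoters of such genes, either with the ternary complex factors ELK1, ELK3 and ELK4, which are activated by MAP kinases, or with the myocardin-related factors MRTFA and MRTFB, which respond to actin. NAB1 and NAB2 bind EGR proteins and repress their targets, and NAB2 is itself induced by EGR1, which closes a feedback loop. IER2 encodes a small nuclear protein of the same immediate early response.

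RNA was measured on 12 Illumina bead arrays, all on 1 chip, with 2 arrays in each of 6 groups. A549, a line from a human lung adenocarcinoma, and BEAS-2B, a virus-immortalised line from normal human bronchial epithelium, were each represented by a control group in medium alone and by groups given 0.25% dust extract for 1 h and for 6 h. Cells of all 6 groups were deprived of serum overnight before treatment. The labels give the controls no time point, so whether they are matched in time to the 1 h or the 6 h arrays is not known. The 2 arrays of a group carry the numbers 1 and 2, which are not said to mark separate cultures, so the p-values measure only how these arrays vary, which may in part be technical.

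Between 17730 and 19453 probes were detected per array, and replicate arrays correlated at 0.980 to 0.982 in A549 and at 0.965 to 0.972 in BEAS-2B (Pearson, over probes). All 6 epithelial markers were detected on every array. Of the 6 A549 markers, ALDH1A1 was detected on all 6 A549 arrays (14.36 to 14.71 on the log2 scale), while SFTPC, NKX2-1 and AKR1C1 were detected on none. NAPSA and SFTPB were each detected on 1 A549 array, and SFTPB and ALDH1A1 were each also detected on 1 BEAS-2B array. The basal cell markers KRT5 and S100A2 were detected on all 6 BEAS-2B arrays and on 0 A549 arrays. KRT14, also a basal marker, was detected on 3 of the 6 BEAS-2B arrays and on 0 A549 arrays. PTPRC and CD3E of leukocytes and all 4 endothelial markers were undetected on all 12 arrays, while CD14 and CD68, which epithelial cells can also express, were detected on all of them. The leukocyte marker LYZ was detected on 5 A549 and 6 BEAS-2B arrays. Of the 5 fibroblast markers COL1A1 was detected on all 6 BEAS-2B arrays and LUM on all 6 A549 arrays, at levels of 5.61 to 6.87. COL1A1 was also detected on 4 A549 arrays, and COL1A2, COL3A1 and DCN on 1 or 2 arrays of each line. The summed level of the 3 measured basal markers in BEAS-2B lay at 9.67 to 10.60 in controls, 10.03 to 11.03 at 1 h and 10.96 to 11.76 at 6 h, and its part in the BEAS-2B results was not tested.

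The promoters of EGR1, SRF and NAB2 are shown because these are the members with changes past a test below. The part of the promoter motifs in those changes was not tested. Each is the 250 bases before the gene start, on the + strand of GRCh38.p14, from RefSeq. The windows lie at chr5:138465229-138465478 for EGR1, chr6:43171019-43171268 for SRF and chr12:57088864-57089113 for NAB2. CArG boxes and EGR sites are in capitals.
EGR1: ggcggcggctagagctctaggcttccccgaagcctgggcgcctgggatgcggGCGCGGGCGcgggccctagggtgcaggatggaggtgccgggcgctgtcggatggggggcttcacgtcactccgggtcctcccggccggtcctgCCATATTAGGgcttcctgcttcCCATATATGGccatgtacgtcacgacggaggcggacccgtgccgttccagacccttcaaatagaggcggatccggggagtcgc
SRF: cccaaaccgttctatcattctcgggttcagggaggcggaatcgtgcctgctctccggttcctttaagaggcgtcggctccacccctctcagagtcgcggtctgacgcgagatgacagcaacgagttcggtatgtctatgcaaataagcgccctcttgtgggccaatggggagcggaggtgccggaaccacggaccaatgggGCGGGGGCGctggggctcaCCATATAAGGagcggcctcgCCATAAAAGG
NAB2: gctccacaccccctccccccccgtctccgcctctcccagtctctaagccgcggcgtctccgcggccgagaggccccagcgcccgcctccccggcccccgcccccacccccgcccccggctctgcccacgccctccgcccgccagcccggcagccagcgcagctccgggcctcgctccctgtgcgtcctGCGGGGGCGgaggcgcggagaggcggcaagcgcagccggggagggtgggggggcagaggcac

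The EGR1 window holds 2 CArG boxes, CCATATTAGG from -105 to -96 and CCATATATGG from -83 to -74, counted back from -1 as the base before the gene start. The SRF window also holds 2, CCATATAAGG from -30 to -21 and CCATAAAAGG from -10 to -1. Among 35116 promoter windows of this length, 1.159% held a CArG box and 11 windows (0.0313%) held 2 or more. The EGR site was searched as GCGNGGGCG on both strands, and 8.415% of the windows held it. It lies from -198 to -190 in EGR1, from -49 to -41 in SRF and from -62 to -54 in NAB2, where no CArG box was found. No capitals of a CArG box overlapped those of an EGR site. The NAB1 window at its gene start held 2 overlapping EGR sites and no CArG box, and the IER2 window held neither motif. A match describes these letters and does not show binding.

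EGR1 had the largest change of the 6 members at 1 h in A549. In A549 cells it lay near the detection limit in controls, was 18.0-fold higher at 1 h and overlapped the controls again at 6 h. In BEAS-2B cells it stood high in untreated cells and was 3.49-fold higher at 1 h. Levels are normalised log2 intensities of 1 probe throughout, and are compared only within a probe.

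In A549 controls the EGR1 level was 5.68 on array 1 and 5.54 on array 2. At 1 h it was 9.87 and 9.68, and at 6 h it was 5.83 and 5.08. The 1 h arrays lay far above the others, the 6 h and control arrays overlapped, and the probe was not detected on the lower 6 h array. Before normalisation the mean bead signal was 125.1 ± 6.6 and 109.5 ± 6.1 in controls (± standard error over beads), and 1206.3 ± 32.9 and 944.4 ± 26.7 at 1 h. Over the 12 arrays the EGR1 signal rested on 18 to 38 beads, and its bead error was 2.28% to 7.48% of the signal.

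**Figure D1:**
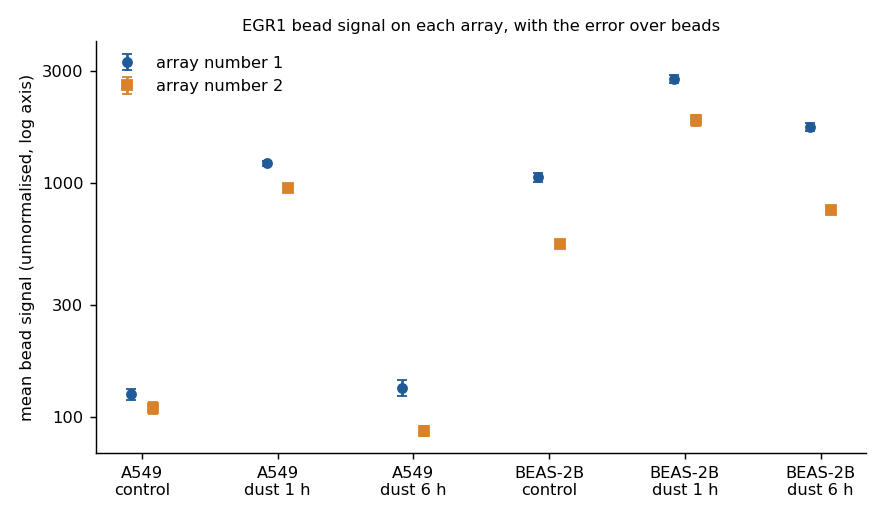
Unnormalised mean bead signal of the EGR1 probe (log axis) on each of the 12 arrays, by group, with circles for array number 1, squares for number 2 and bars for the standard error over beads. The 2 A549 arrays at 1 h, 1206.3 and 944.4, stand apart from the other A549 arrays, and array 1 lies above array 2 in every BEAS-2B group.

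EGR1 rose in A549 at 1 h by 4.17 on the log2 scale (SE 0.54, 95% interval 2.98 to 5.36, limma adjusted p = 0.0281). The change was 4.20 between the arrays numbered 1 and 4.14 between those numbered 2. With the array number within each line as a block the adjusted p was 3.94e-05. From 1 h to 6 h EGR1 fell by 4.33 (SE 0.54, limma adjusted p = 0.0243), with 1 of the 2 arrays at 6 h detecting it. Against control the 6 h change was -0.16, with a 95% interval of -1.34 to 1.03 that spans changes of either sign. Bulk arrays do not tell a higher share of responding cells from more RNA per cell. The 1 h change was 3.11 without background correction, where the limma adjusted p was 0.0602. Leaving out either A549 control array or either A549 1 h array also ended the call, with changes of 4.07 to 4.27 and limma adjusted p-values of 0.163 to 0.499.

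In BEAS-2B controls the EGR1 level was 10.20 on array 1 and 8.87 on array 2. At 1 h it was 11.86 and 10.81, and at 6 h it was 10.95 and 9.51. Array 1 was above array 2 by 1.33 in controls, 1.05 at 1 h and 1.44 at 6 h, so the spread within a group was of the size of the change. Both 1 h arrays lay above both controls, and the 6 h arrays overlapped the controls and the 1 h arrays. In A549 the same gap was 0.13, 0.19 and 0.75.

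The BEAS-2B change at 1 h was 1.80 (SE 0.54), 1.66 between arrays numbered 1 and 1.94 between those numbered 2. It did not pass without the block (limma adjusted p = 0.623) and passed with it (limma adjusted p = 0.00388). The change from 1 h to 6 h, -1.11, likewise had an adjusted p of 0.829 without the block and 0.0408 with it (limma). The 6 h change against control was 0.69 (95% interval -0.49 to 1.88), with limma adjusted p-values of 0.982 without and 0.181 with the block. Number and place on the chip run together in the labels, so the 2 cannot be told apart.

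Ordered by mean, the EGR1 level was highest in BEAS-2B at 1 h (11.34 ± 0.75, SD, n = 2), then BEAS-2B at 6 h (10.23 ± 1.02), A549 at 1 h (9.78 ± 0.14), BEAS-2B control (9.53 ± 0.94), A549 control (5.61 ± 0.09) and A549 at 6 h (5.45 ± 0.53). The A549 level at 1 h lay within the range of untreated BEAS-2B. The arrays of neighbouring groups in this order overlapped, or lay within the range of the other, except at the step from BEAS-2B control to A549 control.

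**Figure D2:**
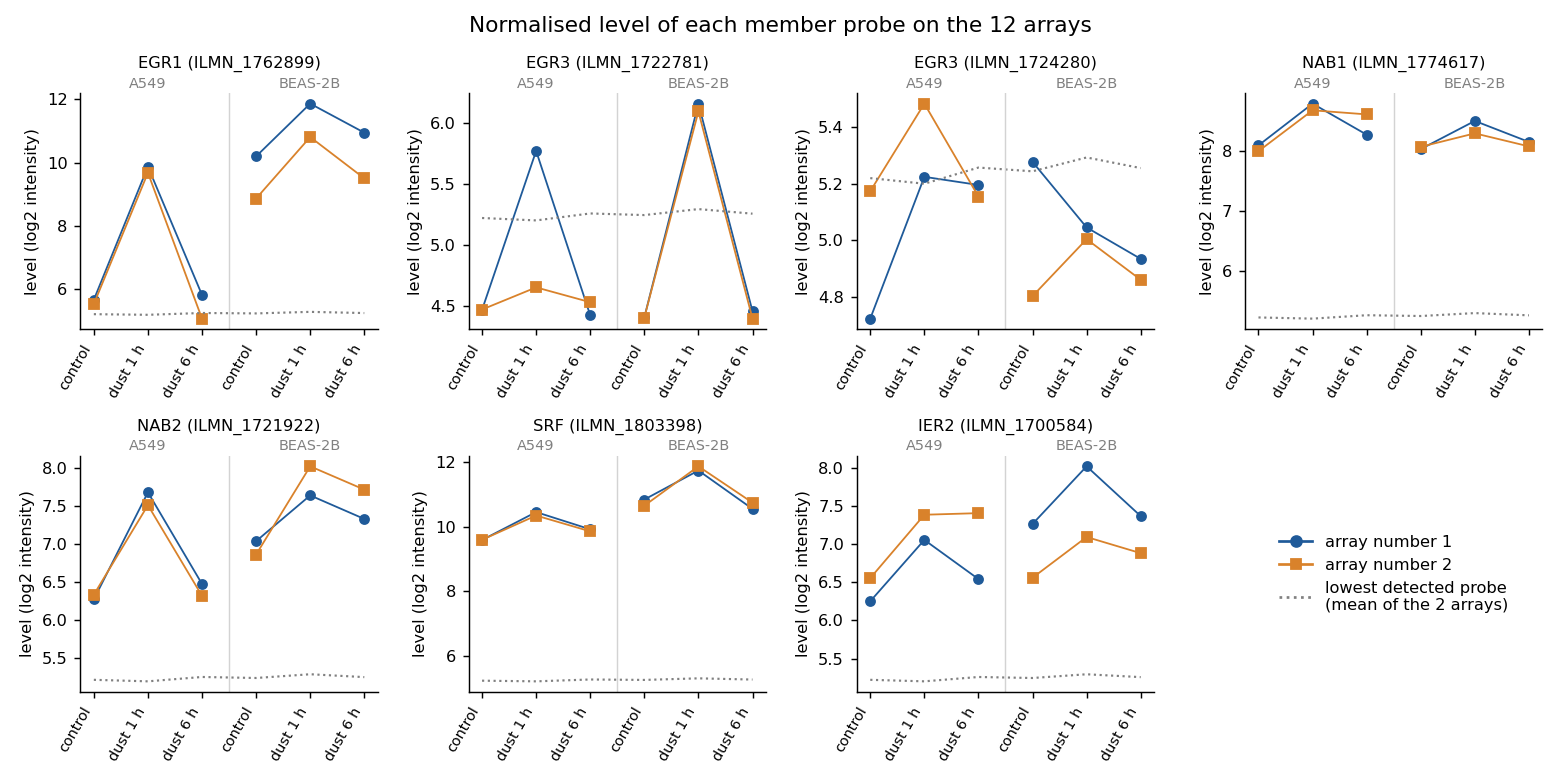
Normalised level (log2 intensity) of each of the 7 member probes on the 12 arrays, by line and condition, with circles and lines for array number 1, squares and lines for number 2, and a dotted line for the lowest detected probe. EGR1, NAB2 and SRF peak at 1 h in both lines, and the EGR3 probe ILMN_1722781 lies above the dotted line only on 1 A549 and 2 BEAS-2B arrays at 1 h.

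EGR3, a close relative of EGR1 with the same binding site, was near or below detection on most arrays, and its 2 probes did not give the same picture. The probe ILMN_1722781 was detected on 3 arrays, all at 1 h. In BEAS-2B it read 4.40 and 4.40 in controls, 6.16 and 6.09 at 1 h, and 4.45 and 4.39 at 6 h. In A549 it read 4.47 and 4.47 in controls, 5.77 and 4.65 at 1 h, and 4.42 and 4.53 at 6 h. Both BEAS-2B arrays at 1 h were thus raised, and 1 of the 2 A549 arrays was.

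In the fit that kept every detected probe, ILMN_1722781 was at least 1.84-fold higher in BEAS-2B at 1 h, a bound taken against the lowest detected probe of each control array. Its fitted change was 1.72 (SE 0.30). The step from 1 h to 6 h was -1.70. No test is given for this probe, since it entered the fit only through the 1 h arrays where it was high. In A549 the change at 1 h was 0.74, made up of 1.30 on array 1 and 0.18 on array 2.

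The other EGR3 probe, ILMN_1724280, was the brighter by mean and so stood for the gene in the fit of 1 probe per gene. It was also detected on 3 arrays, both A549 arrays at 1 h and 1 BEAS-2B control. Its A549 levels were 4.72 and 5.17 in controls and 5.22 and 5.48 at 1 h, at least 1.10-fold higher. In BEAS-2B its change at 1 h was -0.02 (95% interval -0.52 to 0.49). No statement on EGR3 rests on both probes.

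NAB2, the corepressor that EGR1 induces, was likewise highest at 1 h in A549. Its A549 level was 6.27 and 6.34 in controls, 7.68 and 7.51 at 1 h, and 6.48 and 6.32 at 6 h. The 1 h arrays were clear of all others and the 6 h arrays overlapped the controls. The change at 1 h was 1.29 (SE 0.21, 2.44-fold), with a limma adjusted p of 0.0950 without the block and 0.0228 with it. From 1 h to 6 h NAB2 changed by -1.20, with limma adjusted p-values of 0.232 and 0.0447.

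In BEAS-2B the NAB2 level was 7.04 and 6.86 in controls, 7.64 and 8.02 at 1 h, and 7.33 and 7.71 at 6 h. All treated arrays were above both controls. The change was 0.88 at 1 h (95% interval 0.40 to 1.35) and 0.57 at 6 h (0.10 to 1.05), and neither passed, with limma adjusted p-values at 1 h of 0.358 without and 0.107 with the block. The 6 h arrays overlapped the 1 h arrays in BEAS-2B, where the step was -0.31, whereas in A549 they did not. The difference between the lines in the 6 h change was 0.48 (95% interval -0.19 to 1.15) and did not pass.

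NAB1, the other corepressor, had changes that did not pass. Its A549 level was 8.10 and 8.01 in controls, 8.80 and 8.69 at 1 h, and 8.28 and 8.62 at 6 h. Its BEAS-2B level was 8.04 and 8.08 in controls, 8.51 and 8.30 at 1 h, and 8.16 and 8.09 at 6 h. Treated arrays were above both controls at both times in both lines, though at 6 h the 95% intervals spanned changes of either sign. The 6 h changes were 0.40 in A549 (95% interval -0.03 to 0.82) and 0.06 in BEAS-2B (-0.36 to 0.49). The changes at 1 h were 0.69 in A549 (95% interval 0.27 to 1.12) and 0.35 in BEAS-2B (-0.08 to 0.77), and neither passed with or without the block.

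SRF was detected on every array, and its level at 1 h was 1.06 above control in BEAS-2B and 0.81 above control in A549. In BEAS-2B its level was 10.85 and 10.66 in controls, 11.75 and 11.88 at 1 h, and 10.56 and 10.75 at 6 h. The 1 h arrays were clear of the rest, and the 6 h arrays overlapped the controls. The change at 1 h was 1.06 (SE 0.18, 2.09-fold), with a limma adjusted p of 0.0831 without the block and 0.0235 with it. The step from 1 h to 6 h was -1.16, with limma adjusted p-values of 0.0679 and 0.0175. With each array centred on its median in place of quantile normalisation the 1 h change was 0.94 and its limma adjusted p was 0.986.

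In A549 the SRF level was 9.59 and 9.60 in controls, 10.46 and 10.35 at 1 h, and 9.92 and 9.86 at 6 h. The order control, 6 h, 1 h held with no overlap. The change at 1 h was 0.81 (95% interval 0.41 to 1.21), with limma adjusted p-values of 0.407 without and 0.139 with the block. The difference between the lines in the 1 h change was 0.25 (95% interval -0.32 to 0.82) and did not pass.

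IER2 differed between the 2 arrays of a group, with array 2 above array 1 in every A549 group and below it in every BEAS-2B group. Its A549 level was 6.25 and 6.56 in controls, 7.06 and 7.39 at 1 h, and 6.54 and 7.41 at 6 h. Its BEAS-2B level was 7.27 and 6.56 in controls, 8.03 and 7.10 at 1 h, and 7.37 and 6.89 at 6 h. In A549 the 1 h arrays were above both controls, and in BEAS-2B the groups overlapped. The 1 h changes were 0.82 (95% interval -0.03 to 1.67) and 0.65 (-0.20 to 1.50), and neither passed with or without the block.

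Counted together, the members were above control mainly at 1 h. EGR3 entered this count with the probe ILMN_1724280, which passed the filter on dim probes through both A549 arrays at 1 h, so its direction in A549 was partly set by the filter. In A549 at 1 h 1 of the 6 genes passed (EGR1), against 0.0897% of the 20060 features tested, and 2 passed with the block (EGR1 and NAB2), against 0.349%. All 6 had 1 h arrays above both controls, against 13.3% of features, and 4 of 6 had an unadjusted p under 0.05, against 2.47%. In BEAS-2B at 1 h 0 of 6 passed in limma, against 0.125%, and 2 passed with the block (EGR1 and SRF), against 0.538%. The count with an unadjusted p under 0.05 was 3 of 6, against 4.35%. In that line 4 of 6 had arrays above both controls, against 11.7%. The median change of the 6 genes at 1 h was 0.82 in A549 and 0.76 in BEAS-2B, beside -0.01 and -0.03 over all features. The lines are compared with their own controls, which share no arrays, while the 1 h and 6 h changes of a line share its controls.

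At 6 h 0 of 6 members passed in A549 (against 0.00499% of features) and 0 of 6 in BEAS-2B (against 0.0648%), in limma. With the block the counts were again 0 and 0, against 0.279% and 0.568%. An unadjusted p under 0.05 was reached by 0 members in A549 and 1 in BEAS-2B, against 3.76% and 5.94%. The median change was 0.26 in A549 and 0.14 in BEAS-2B. From 1 h to 6 h 1 member fell in A549 (EGR1), against 0.0349% of features, and 2 with the block (EGR1 and NAB2), against 0.234%. In BEAS-2B 0 passed that step, against 0.0598%, and 2 did with the block (EGR1 and SRF), against 0.673%. That BEAS-2B step had an unadjusted p under 0.05 for 1 of 6, against 5.98%.

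**Figure D3:**
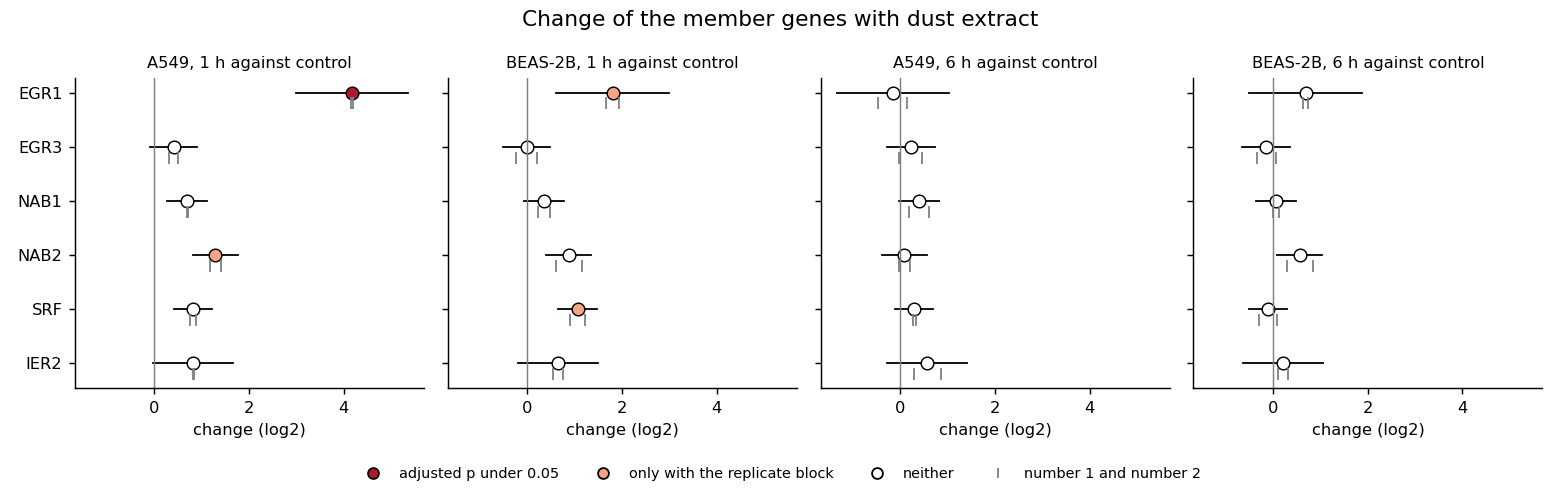
Change of the 6 member genes (log2) against control in each line at 1 h and 6 h, with a line for the 95% interval of the fit without the block and ticks for the change between arrays numbered 1 and between those numbered 2. Filled points passed at an adjusted p under 0.05 without the block (dark) or only with it (light); EGR1 in A549 at 1 h, at 4.17, lies farthest from 0.

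The lines differed most in the EGR1 change at 1 h. It was smaller in BEAS-2B than in A549 by 2.37 on the log2 scale (1.80 against 4.17). The SE of this difference was 0.76 without the block and 0.28 with it, and the limma adjusted p was 1.00 without the block and 0.0339 with it. With no background correction the difference was -1.39. The counts of members with a line difference were 0 of 6 without the block, against 0% of features, and 1 of 6 with it, against 0.0399%. Without the block 1 of 6, EGR1, had an unadjusted p under 0.05, against 2.48% of features. At 6 h 0 of 6 differed, against 0.00997% of features, and 0 of 6 with the block, against 0.105%. None of the 6 had an unadjusted p under 0.05 at 6 h, against 3.78%.

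Untreated BEAS-2B had more EGR1 and SRF mRNA than untreated A549. EGR1 was higher by 3.93 on the log2 scale (SE 0.54, 15.2-fold, limma adjusted p = 0.000434) and SRF by 1.16 (SE 0.18, 2.23-fold, limma adjusted p = 0.00110). With no background correction the EGR1 difference was 2.89. Of the 6 members 2 passed, both higher, in a comparison where 10.8% of features were higher and 22.3% passed in all. NAB2 was higher by 0.64 with a limma adjusted p of 0.0539, and IER2, NAB1 and EGR3 did not pass. Line and place on the chip run together here too.

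Among 429 named genes whose group means spanned at least 1 on the log2 scale after centring on each line, those most like EGR1 over the 12 arrays were CCN1 (Pearson r = 0.948), CSRNP1 (0.938), JUNB (0.915), MCL1 (0.912) and ZC3H12C (0.907). CCN1 encodes a matrix protein and JUNB an AP-1 subunit, and both are immediate early genes. MCL1 is an anti-apoptotic member of the BCL2 family. Among the members, NAB2 was closest to EGR1 (0.862), followed by NAB1 (0.736), SRF (0.678), IER2 (0.593) and EGR3 (0.542). The 12 points share 1 chip and the 2 array numbers in each line, so these correlations are a description.

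The cofactors through which SRF acts had no member past the test. Of the 6 measured, ELK1, ELK3, ELK4, MRTFA, MRTFB and MYOCD, 0 passed in any of the 4 comparisons with control in limma, with or without the block. Among all features 0.00499% to 0.125% passed these comparisons without the block and 0.279% to 0.568% with it. A count of 0 of 6 therefore does not set the cofactors apart. The counts at an unadjusted p under 0.05 were 0 in both lines at 1 h, against 2.47% of features in A549 and 4.35% in BEAS-2B. At 6 h they were 1 in A549 and 0 in BEAS-2B, against 3.76% and 5.94%. The cofactor medians at 1 h were 0.03 in A549 and -0.07 in BEAS-2B. ELK4 had changes of 0.36 and 0.34 in the 2 lines at 1 h. MRTFA had -0.54 in BEAS-2B at 1 h and -0.82 in A549 at 6 h. MYOCD, a muscle factor, was at the detection limit.

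Immediate early genes known to respond to SRF were among those that rose at 1 h in both lines. All the gene lists were chosen with earlier results of these data known, so their counts beside shares of features are a description. Of 10 measured, 4 passed in A549 (against 0.0897% of features) and 5 did with the block (0.349%), and 4 passed in BEAS-2B (0.125%) and 8 did with the block (0.538%). Leaving out single arrays of either line took each count without the block as low as 2, and with each line fitted alone the counts were 3 in A549 and 1 in BEAS-2B. The list medians were 1.57 in A549 and 1.64 in BEAS-2B, and 10 and 9 of the 10 had 1 h arrays above both controls, against 13.3% and 11.7% of features. FOSB, an AP-1 subunit, rose at least 62.5-fold in A549 (change 6.40, limma adjusted p = 4.35e-05) and by 5.78 in BEAS-2B (limma adjusted p = 0.000124), where 1 of the 2 control arrays detected it. NR4A1, an orphan nuclear receptor, rose at least 5.99-fold in A549 and at least 2.00-fold in BEAS-2B. It was undetected on the controls of both lines, so it passed the filter on dim probes only through treated arrays. The direction of NR4A1 was thus partly set by the filter, and FOSB was also undetected on both A549 controls. Both genes are among the 10 counted above. With no detection filter 2 genes of the list passed in A549 and 3 in BEAS-2B. Shares of features are not given for these alternative fits, so their counts are not set against the shares above. ZFP36, which binds and destabilises mRNAs, rose by 1.65 and 1.72. CCN1 rose by 2.68 in A549, and its change in BEAS-2B was 1.64, which passed only with the block. TRIB1, a pseudokinase, rose by 2.88 in BEAS-2B, and its change in A549 was 1.48, past the test only with the block. FOS, whose promoter is the classic SRF target, had changes of 1.35 in A549 and 2.12 in BEAS-2B, and the second passed with the block. KLF6 (1.64) and KLF10 (1.42), zinc finger factors, also passed with the block in BEAS-2B.

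At 6 h against control 0 of these 10 genes passed in either line, against 0.00499% of features in A549 and 0.0648% in BEAS-2B. At an unadjusted p under 0.05 the count was 1 in each line, against 3.76% in A549 and 5.94% in BEAS-2B. With the block TRIB1 passed in BEAS-2B (1.30), against 0.568% of features. From 1 h to 6 h FOSB fell at least 60.9-fold and NR4A1 by 2.30 in A549, and FOSB fell in BEAS-2B by 5.78. With the block 6 of the 10 passed that step in A549 and 7 in BEAS-2B, against 0.234% and 0.673% of features.

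**Figure D4:**
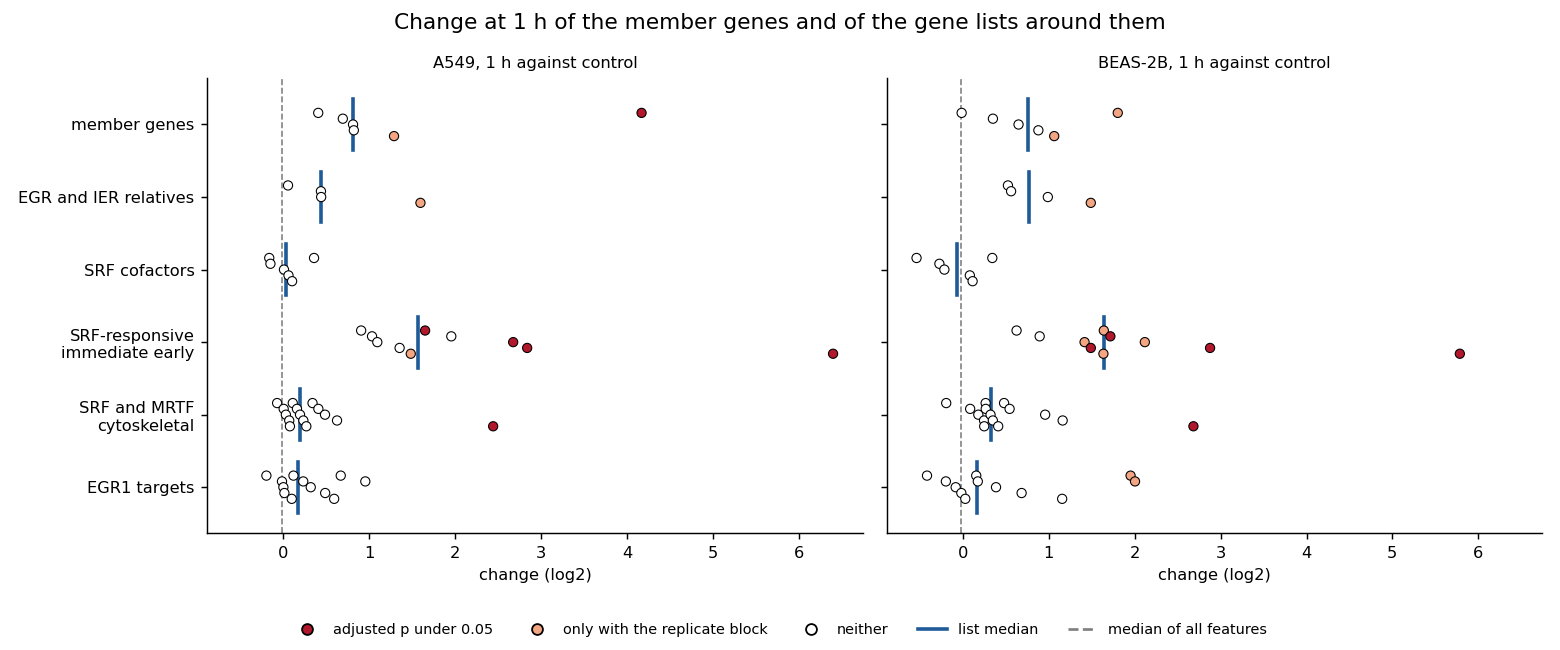
Change at 1 h (log2) of each measured gene of the members and of 5 gene lists in A549 (left) and BEAS-2B (right), with a short bar for the list median and a dashed line for the median of all features. Dark points passed at an adjusted p under 0.05, light points passed only with the replicate block; the immediate early list has medians of 1.57 and 1.64, and the cytoskeletal, cofactor and EGR1 target lists have medians between -0.07 and 0.32.

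The cytoskeletal genes that SRF drives with the MRTF cofactors had 1 gene past the test. Of 15 measured, 1 rose in each line at 1 h, against 0.0897% of features in A549 and 0.125% in BEAS-2B. It was CCN2, a matrix protein and early gene, by 2.44 in A549 (limma adjusted p = 0.0281) and 2.68 in BEAS-2B (limma adjusted p = 0.00720). With each line fitted alone CCN2 passed in neither line, and with arrays centred on the median or with no detection filter it did not pass in A549. The medians were 0.19 and 0.32. In each line 7 of the 15 had 1 h arrays above both controls, against 13.3% of features in A549 and 11.7% in BEAS-2B. ACTB, a cytoplasmic actin, had changes of 0.00 and 0.25, and VCL, which encodes vinculin, had 0.41 and 0.48. At 6 h 0 of 15 passed in either line, against 0.00499% of features in A549 and 0.0648% in BEAS-2B. An unadjusted p under 0.05 was reached by 0 in A549 and 3 in BEAS-2B, against 3.76% and 5.94%. TAGLN, a smooth muscle actin-binding protein, had a change of 1.67 in BEAS-2B at 6 h that did not pass (limma adjusted p = 0.737, and 0.0808 with the block).

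Of 12 measured genes known as EGR1 targets, 0 passed in limma at 1 h or 6 h in either line without the block. At most 0.125% of features passed any of those comparisons. With the block 2 passed in BEAS-2B at 1 h, F3 and THBS1, against 0.538% of features. With no background correction 1 passed in BEAS-2B at 1 h without the block, in a fit for which no share of features is given. The counts at an unadjusted p under 0.05 were 0 and 0 in A549 (against 2.47% and 3.76% of features) and 4 and 3 in BEAS-2B (4.35% and 5.94%), at 1 h and 6 h. F3, which encodes tissue factor, had changes of 2.00 in BEAS-2B and 0.49 in A549 at 1 h, and its limma adjusted p in BEAS-2B was 0.111 without and 0.00417 with the block. THBS1, a matrix glycoprotein, had 1.95 in BEAS-2B, with limma adjusted p-values of 0.220 and 0.0497. GDF15, a stress cytokine, had the largest change of the list in A549 at 1 h, 0.95. The list medians were 0.17 in A549 and 0.16 in BEAS-2B. At 1 h 6 of the 12 in A549 and 4 in BEAS-2B had arrays above both controls, against 13.3% and 11.7% of features. In A549 1 of the 12 had 1 h arrays below both controls. The share of all features lower in this way is not given here, so nothing is read from that count. In untreated cells 6 of the 12 were higher in BEAS-2B than in A549, against 10.8% of features, and 2 were lower. In that comparison 22.3% of features passed in all. Among the higher genes were F3, by 3.00, and PDGFB, by at least 3.72-fold. The lower ones were FGF2, by 8.67-fold (detected on 1 of the 2 BEAS-2B arrays), and GDF15, by at least 18.4-fold.

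Of the 4 measured relatives of the EGR and IER genes, WT1, IER3, IER5 and IER5L, 0 passed at 1 h in limma without the block. The shares of features passing were 0.0897% in A549 and 0.125% in BEAS-2B. An unadjusted p under 0.05 was reached by 1 in A549 and 3 in BEAS-2B, against 2.47% and 4.35%. In each line 3 of the 4 had 1 h arrays above both controls, against 13.3% and 11.7%. IER3, an early survival regulator, had changes of 1.60 in A549 and 1.49 in BEAS-2B and passed with the block in both, with a limma adjusted p of 0.0188 in each. At 6 h 0 of the 4 passed, against 0.00499% of features in A549 and 0.0648% in BEAS-2B. At an unadjusted p under 0.05 the 6 h counts were 1 in A549 and 0 in BEAS-2B, against 3.76% and 5.94%. The changes of IER5 were 0.44 and 0.99 at 1 h.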

How the data were processed

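RNA of 12 samples was hybridised to Illumina bead arrays. The authors deposited unnormalised probe intensity values with a detection p-value, a bead number and a bead standard error (unit: signal) per probe, read out with GenomeStudio 2011.1, per the submitters' processing notes. They also deposited a table of linear intensity values with medians near 87.6 on all arrays. The genome build of the probe annotation is not given in the sources used here. Of 47320 probes, 30112 carry 1 gene symbol in the probe table supplied, 8 carry several and 17200 carry none. EGR2, BTG2, FLNA, FHL1, KRT17 and TP63 were not analysed here.

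In R 4.3.3 with limma 3.58.1 the neqc procedure was applied: normexp background correction with negative controls inferred from the detection p-values, offset 16, quantile normalisation and log2. The filter on dim probes (detection p under 0.05 on 2 or more arrays) kept 24467. The probe with the highest mean stood for each gene (20060 features). The 12 arrays entered a single model with 6 group means (residual degrees of freedom 6, prior 4.71), with two-sided moderated tests and Benjamini-Hochberg adjustment over all features within each of 9 comparisons, passing at an adjusted p under 0.05. The median standard error was 0.258, and precision is limited by the number of arrays. The lowest detected probe lay at 5.18 to 5.32 on the log2 scale. A gene undetected on both arrays of a group got a bound, the brighter mean against the higher of the probe's own level and that limit on each dim array.

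The replicate block is the array number within each line. Only for untreated BEAS-2B against untreated A549 was the number a single block shared by both lines. Deviations of same-numbered arrays from their group means correlated at 0.404 to 0.468 in A549 and 0.528 to 0.645 in BEAS-2B over the 3 pairs of groups in each line, and between -0.05 and 0.05 across lines, so the numbers were taken to pair arrays within a line, from the data and not from the labels. Blocked values stand beside a result where they change its call. The fits were tested on simulated data whose noise was independent between arrays, so that test does not bear on the block.

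The members and gene lists were chosen with earlier results of these data known. The text names all members, the list genes that passed in a comparison with control or otherwise had the 2 largest changes, and the 5 genes most correlated with EGR1. ACTB, VCL, FOS, KLF6, KLF10, TAGLN, THBS1 and IER5 were added as examples after their values were seen. Promoter sequences are from RefSeq (GRCh38.p14), matched by symbol. Alternatives covered background correction, normalisation, the authors' value table, the detection filter, the choice of probe, the block, each line alone and each array left out.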

Additional observations from a re-analysis of the deposited data

Results flagged for a closer look

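The change of EGR1 at 1 h was smaller in BEAS-2B than in A549, a difference of -2.37 on the log2 scale, and this difference passed its own test with the replicate block (SE 0.28, limma adjusted p = 0.0339) and did not pass without it (SE 0.76, limma adjusted p = 1.00). With no background correction, and with the authors' deposited value table, the difference was -1.39 and did not pass. Both pairs of same-numbered arrays gave the smaller change in BEAS-2B, 1.66 and 1.94 there against 4.20 and 4.14 in A549. The untreated EGR1 level was 9.53 in BEAS-2B and 5.61 in A549, and its part in the difference was not tested.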

How the results depend on the processing

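Alternatives were run for the counts, for the EGR1, NAB2 and SRF changes that passed with or without the block, and for 1 EGR3 probe. None of these changes turned its sign, but this was close to set in advance and is no support. The EGR1, NAB2 and SRF changes were picked because they passed, and the EGR3 probe was detected only at 1 h. With quantile normalisation and no background correction, with the authors' deposited value table, and with no detection filter, 0 members passed in A549 at 1 h and 0 in the A549 step from 1 h to 6 h, while 1 passed in BEAS-2B at 1 h and 1 in the BEAS-2B step. The stricter filter (detection p under 0.01 on both arrays of a group) also gave 1 and 1 in BEAS-2B. With the replicate block the pairing raised the counts to 2 in A549 at 1 h, 2 in BEAS-2B at 1 h, 2 in each line from 1 h to 6 h, and 1 for the line difference at 1 h, and it changed no other count of members. With no background correction the SRF change in BEAS-2B at 1 h was 1.04 (limma adjusted p = 0.0113), the EGR1 difference between untreated lines 2.89 and the line difference of EGR1 at 1 h -1.39. Leaving out 1 array at a time gave 0 to 1 members in A549 at 1 h, where the call was lost without either A549 control or either A549 1 h array, and 0 to 1 in the A549 step, where it was lost without any 1 of the 6 A549 arrays. In the same fits the early gene list counted 2 to 4 in A549 at 1 h (2 without any 1 of the A549 arrays or either BEAS-2B 6 h array) and 2 to 4 in BEAS-2B (2 without any 1 of the A549 arrays, either BEAS-2B 1 h array or BEAS-2B control 2). CCN2 was lost in A549 without either control, 1 h array 1 or either BEAS-2B 6 h array, and in BEAS-2B without control 2 or either 1 h array. Without BEAS-2B control 1, 1 of the EGR and IER relatives and 2 EGR1 targets passed in BEAS-2B at 1 h, and 1 EGR1 target at 6 h. In BEAS-2B the EGR1 change ran from 1.14 to 2.47 at 1 h and from -1.83 to -0.39 between 1 h and 6 h, as its arrays 1 and 2 differ, and the line difference from -3.03 to -1.70. EGR1 and SRF stayed higher in untreated BEAS-2B in all 12 of these fits, by 3.26 to 4.59 and 1.06 to 1.25. Leaving out all BEAS-2B arrays of 1 number, an alternative chosen after seeing the data, left 1 member in A549 at 1 h. Fitting each line alone gives no value for comparisons between lines. The cause of these moves was not tested. Apart from the block, the counts of these alternatives have no share of features from the same fit beside them. Signal over background limits EGR3, with each probe detected on 3 of 12 arrays, and EGR1 in A549 at 6 h.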
